A study of Mus musculus with 45 samples.

Results

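Mouse induced pluripotent stem cell (iPSC) lines made from tail tip fibroblasts (TTF) were compared with lines made from T cells, both of mouse 2 and both at passage 4. The comparison held 6 of the 45 samples of the study: 3 clones of TTF origin and 3 clones of T cell origin. All 6 were arrays of the table of 33 arrays that holds passages 4, 6 and 16, and members were taken by their labels for cell source, passage and mouse, with no use of measured values. The study derived iPSC with a secondary system, in which the somatic cells already carry the reprogramming factors, and asks how lines of different origin compare. Every group shared its culture: serum and LIF medium on a layer of irradiated embryonic fibroblasts, with trypsin treatment and a preplating step to take those feeders away before RNA was made. The labels used here name no strain, sex, age, genotype or agent for the factors. The clones of each origin came from 1 mouse, so the p-values below measure how clones vary, not how animals do. The spread of clones was estimated for each gene jointly over all groups of arrays normalized together, other origins and passages included. Where TTF clones vary more than those groups, the model's error and p-value understate their spread. Nothing in the labels says how far the clones were cultured apart. Beside these 6 arrays, lines of B cell and granulocyte origin at passage 4 and both TTF and T cell lines at passages 10 and 16, all of mouse 2, are used where stated.

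Reprogramming replaces the expression program of a somatic cell with that of the early epiblast, held by Pou5f1, Sox2, Nanog and their partners under LIF. Fibroblasts are connective tissue cells that secrete collagens and other matrix proteins, and T cells are lymphocytes marked by the CD3 complex and its signalling kinases. Mouse pluripotent cells in serum and LIF rely strongly on glycolysis, respond to serum through immediate early genes such as Fos and Egr1, and make cholesterol through enzymes controlled by sterol-sensing factors. Each of these programs was read here as a list of genes on the arrays.

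Values are on the log2 scale, as deposited. A difference is always TTF minus T in log2 units with its standard error (SE) from the model, a level is the mean ± SD of 3 clones, and a gene is called where the adjusted p of limma, after Benjamini and Hochberg over all 11807 genes, is under 0.05. Signal of the lower quartile of probe sets lay between 4.42 and 4.57 in the 6 arrays, and levels under 6 are called dim here. One TTF array stood apart before any test. Clone 2 correlated with the other TTF clones at r = 0.9768 and 0.9786 over all genes, against 0.9871 between clones 1 and 3 and 0.9884 to 0.9950 among the T cell clones. Between origins r ran from 0.9584 to 0.9831. The 3' minus 5' difference of the Gapdh and Actb control probe sets, a measure of RNA length that rises as RNA shortens, was 3.03, 3.998 and 2.18 in TTF clones 1, 2 and 3 and 1.85, 1.93 and 2.88 in the T cell clones. The groups overlapped in it, TTF clone 2 was the highest, and its part in the results was not tested beyond the fits that leave that clone out or take the measure as a covariate.

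The lines carried the markers of pluripotent cells. Pou5f1, the central transcription factor of pluripotency, was at 10.99 ± 0.19 in TTF lines and 11.35 ± 0.12 in T cell lines (difference -0.36, adjusted p = 0.064). Sox2 lay at 10.88 ± 0.20 and 10.90 ± 0.23, with a difference of -0.02 (adjusted p = 0.96). For Nanog the levels were 12.17 ± 0.15 and 11.65 ± 0.32 (difference 0.52, adjusted p = 0.20). Defining genes of T cells were dim in both origins: Cd3d at 3.59 to 4.17, Cd3g at 3.26 to 3.63, Cd4 at 4.67 to 5.30 and Cd8a at 4.46 to 5.06 over all 6 clones. Of 26 measured T cell genes, Lef1 was called lower in TTF lines and Cd3e, which encodes a chain of the CD3 complex, higher in them. The Cd3e values were 4.25, 5.47 and 5.09 in TTF clones and 3.71, 4.46 and 3.90 in T cell clones, so the groups overlapped and the level was higher in the lines of the other origin. Zap70, a T cell receptor kinase, differed by -0.25 (adjusted p = 0.63). Lef1 was the 1 called gene of the list that was higher in T cell lines, at 4.46 to 5.17 against 3.57 to 4.02. All of these values were dim. B cell and granulocyte lines, at means of 4.49 and 4.57, were nearer to T cell lines than to TTF lines.

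At passage 4 the 2 origins differed in 1506 of 11807 genes (12.8%), of which 690 (5.84%) were higher and 816 (6.91%) lower in TTF lines. The unadjusted p was under 0.05 for 2959 genes. In 1398 of the called genes the values of the clones did not overlap between the origins, beside 3188 genes (27%) without overlap over all genes. Differences of at least 2-fold were found among the called genes for 473, with 207 higher and 266 lower in TTF lines, and 32 reached 4-fold. The median absolute difference was 0.23 over all genes and 0.83 over the called genes. The count was 729 without TTF clone 2 and 974 without T cell clone 2. It was 2251 without the passage 16 array of granulocyte clone 3, which had the lowest correlation with its group and enters the shared estimate of spread, and 1365, of which 1052 were shared, without both that array and TTF clone 2. Fitted on the 6 arrays alone, 558 genes were called, 521 of them among the 1506.

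Usp17la, a deubiquitinating enzyme, was 22.2-fold higher in TTF lines. Its values were 9.80, 11.51 and 9.86 in TTF clones and 5.64, 6.49 and 5.62 in T cell clones (difference 4.48 ± 0.43, adjusted p = 1.1e-07), and no TTF clone came near a T cell clone. B cell lines lay at 9.05 ± 0.29 and granulocyte lines at 7.25 ± 0.16, between both origins. AF067061 and Gm20767 had differences of 3.14 ± 0.53 and 2.31 ± 0.51, and D13Ertd608e of 3.34 ± 0.61. In all 3, TTF clone 2 was the highest of the 6 clones. Tktl1, a transketolase-like enzyme, was at 6.37, 8.54 and 6.90 against 3.78, 4.43 and 4.53 (difference 3.02 ± 0.39, adjusted p = 1.3e-05), and all of its 3 probe sets moved the same way. Its level in T cell lines was in the dim range. More even among clones were Fam83h, a scaffold protein of keratin filaments, at 7.79 to 8.02 against 5.32 to 5.49, and Tek, the angiopoietin receptor Tie2, at 9.20 to 9.30 against 6.81 to 7.07. For both the spread within each origin was small beside differences of 2.46 ± 0.29 and 2.32 ± 0.37. The other genes of the 15 furthest above were Uba1y, Gm38423, Bhmt, Aqp9, Rian, Fbp1, Ssty2 and Casp14, with differences from 2.04 to 2.39. All of these but Rian were dim in T cell lines, with mean levels of 3.36 to 4.87. Bhmt makes methionine from homocysteine and betaine, Aqp9 is a channel for water and glycerol, and Fbp1 is an enzyme of gluconeogenesis. The second probe set of Aqp9 differed by 0.005. Gm38423 rested on TTF clone 2, at 9.46 against 6.06 and 6.17 in the other TTF clones, and its adjusted p was 0.13 without that clone.

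Ndrg1, which responds to low oxygen and to metal and stress signals, was the gene furthest below. It was at 6.99, 6.15 and 7.48 in TTF clones and 9.60, 9.95 and 9.82 in T cell clones (difference -2.92 ± 0.22, adjusted p = 2e-09), a 7.56-fold difference without overlap. Tmem106b, a membrane protein of lysosomes, stood at 5.57, 5.28 and 6.39 against 8.73, 8.65 and 8.58 (-2.91 ± 0.35, adjusted p = 6.4e-06). Myl3, a myosin light chain of heart and slow muscle, was at 7.26, 7.84 and 7.77 against 10.50, 10.77 and 10.21 (-2.87 ± 0.49, adjusted p = 0.00031). For each of these the lowest T cell clone was well above the highest TTF clone. Dll1, a ligand of Notch receptors, spread widely among TTF clones, at 8.90, 6.23 and 7.51, against 10.07 to 10.27 in T cell clones. Gata2, a transcription factor of blood progenitors, differed by -2.51 ± 0.31 (adjusted p = 9.1e-06). Its levels in B cell and granulocyte lines, 6.83 and 6.67, were near the 6.57 ± 0.54 of TTF lines rather than the 9.08 ± 0.39 of T cell lines. Plvap, a diaphragm protein of endothelial cells, and Igfbp4, a binding protein of insulin-like growth factors, showed the same order, with T cell lines at 8.50 ± 0.20 and 9.20 ± 0.15 and the 3 other origins between 5.76 and 6.22 and between 6.55 and 6.92. Also among the 15 were Pdlim4, S100a13, Aldoc, Lox, Lin7b, Col3a1, Crebrf and Fdps, with differences from -2.47 to -2.06. Of the 3 probe sets of Lox, 2 moved in that direction. The second probe set of Aldoc differed by -0.26 and that of Col3a1 by -0.07, and the 6 of Igfbp4 ranged from -2.28 to -0.04.

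**Figure D1:**
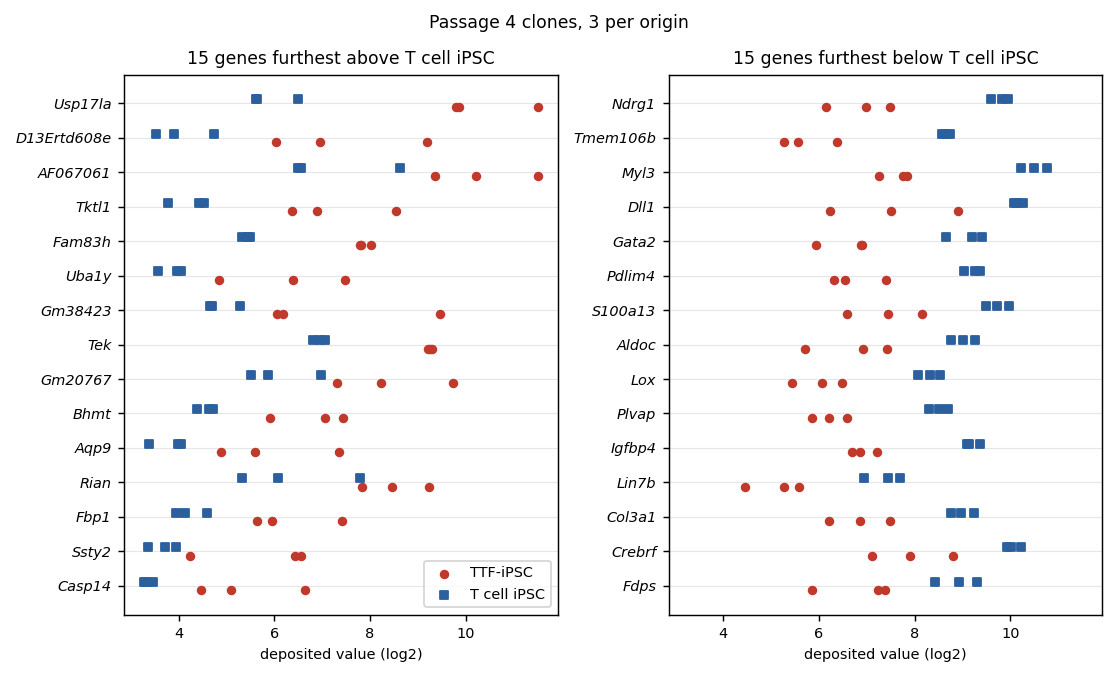
Deposited log2 values (x axes) of the 15 genes furthest above (left) and the 15 furthest below (right) in TTF lines against T cell lines at passage 4, each point 1 clone (TTF circles, T cell squares). The groups do not overlap in any of the genes, by the way these were chosen, and Usp17la separates them by the widest difference, 4.48.

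Enzymes of glycolysis were lower in TTF lines. Of 17 measured genes, 11 were called lower and none higher, beside 6.91% and 5.84% over all genes, and the median difference was -0.63 against 0.02 over all genes. Slc16a3, the lactate exporter MCT4, was at 8.43, 8.13 and 8.34 in TTF clones and 10.08, 10.10 and 10.26 in T cell clones (-1.85 ± 0.13, adjusted p = 5e-10). Aldoc, an aldolase, was at 6.93, 5.72 and 7.42 against 9.27, 9.02 and 8.76 (-2.33 ± 0.34, adjusted p = 5.4e-05). Pfkfb3, which makes the activator of phosphofructokinase, was at 7.45, 6.91 and 7.17 against 9.15, 8.92 and 8.89 (-1.81 ± 0.25, adjusted p = 2.3e-05). TTF clone 2 was the lowest clone in each of the 3 genes, yet clones 1 and 3 also lay below every T cell clone. The second probe sets of Aldoc and Pfkfb3 differed by -0.26 and -0.30. The hexokinases Hk1 and Hk2, the phosphofructokinases Pfkl and Pfkp, Tpi1, Ldha, Pkm and the glucose transporter Slc2a1 were lower by -0.45 to -1.25. Gapdh (-0.20), Aldoa (-0.14), Pgk1 (-0.27), Eno3 (-0.26), Slc2a3 (-0.20) and Pdk1 (0.17) were not called. Averaged over the list, each clone of TTF origin lay between 10.05 and 10.43 and each clone of T cell origin between 11.04 and 11.09, with B cell lines at 11.10 and granulocyte lines at 11.07. With the 6 arrays alone, 5 glycolysis genes were called lower.

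Genes of the response to low oxygen showed the same direction, with 9 of 20 called lower, none higher and a median of -0.67. The share called was 45%, beside 12.8% over all genes. Bnip3, a mitochondrial protein that drives mitophagy, was at 10.16, 9.29 and 9.88 in TTF clones and 11.69, 11.62 and 11.48 in T cell clones (-1.82 ± 0.16, adjusted p = 2.5e-08). Adm, the peptide hormone adrenomedullin, was at 5.75, 5.73 and 5.44 against 7.25, 6.91 and 6.73. The groups were apart in both. Bhlhe40, Ero1a, Kdm3a and the oxygen sensors Egln1 and Egln3 were lower by -0.77 to -1.09. Hif3a was lower by -0.66, whereas Hif1a (0.16) and Epas1 (0.42), which encode the main oxygen-regulated subunits, and Vegfa (-0.54) were not called. With the mean of B cell and granulocyte lines as the reference, T cell lines were called higher for 8 hypoxia genes and lower for 1, and TTF lines higher for 0 and lower for 8. For glycolysis, T cell lines were called higher for 3 genes and lower for 4, and TTF lines higher for 1 and lower for 13. The difference between the lists was not tested. Both contrasts share the B cell and granulocyte arrays, and over all genes 25.3% were called for TTF and 24.6% for T cell lines.

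Promoters of these genes are shown because hypoxia-inducible factors bind the core ACGTG, which was searched on both strands of RefSeq promoters (GRCm38.p6, 250 bases before to 50 after a start). A promoter was given for 16 of the 17 glycolysis genes, of which 11 held the core, and for 15 of the 20 hypoxia genes, of which 11 held it. Of 27025 genes with a promoter, 21.8% did. The core was in 8 of the 11 glycolysis genes called lower and in 4 of the 7 called hypoxia genes that have a promoter. A CACGTG is read as a match on each strand. Capitals mark the core in Aldoc, in Ldha, which had the most matches, and in Bnip3.
Aldoc (chr11:78322823-78323122, plus strand): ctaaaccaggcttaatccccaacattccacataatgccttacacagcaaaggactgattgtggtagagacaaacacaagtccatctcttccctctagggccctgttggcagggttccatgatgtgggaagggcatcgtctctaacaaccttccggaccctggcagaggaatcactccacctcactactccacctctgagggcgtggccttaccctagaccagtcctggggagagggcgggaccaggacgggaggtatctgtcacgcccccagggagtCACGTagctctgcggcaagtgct
Ldha (chr7:46845554-46845853, plus strand): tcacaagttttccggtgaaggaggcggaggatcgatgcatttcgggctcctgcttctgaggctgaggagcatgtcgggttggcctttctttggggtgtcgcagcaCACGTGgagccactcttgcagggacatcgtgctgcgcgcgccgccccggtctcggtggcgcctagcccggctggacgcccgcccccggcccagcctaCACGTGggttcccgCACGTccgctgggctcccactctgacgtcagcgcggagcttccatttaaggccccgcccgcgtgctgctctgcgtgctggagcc
Bnip3 (chr7:138909457-138909756, minus strand): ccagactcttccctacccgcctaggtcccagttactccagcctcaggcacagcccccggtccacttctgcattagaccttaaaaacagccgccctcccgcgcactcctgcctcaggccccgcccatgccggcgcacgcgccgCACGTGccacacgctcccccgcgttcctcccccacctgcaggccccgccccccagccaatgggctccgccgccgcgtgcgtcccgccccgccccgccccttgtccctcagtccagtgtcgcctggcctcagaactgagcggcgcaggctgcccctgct
Ldha, the lactate dehydrogenase subunit behind this promoter, was at 11.68, 11.19 and 11.67 in TTF clones and 12.29, 11.99 and 12.16 in T cell clones. A match describes the letters of the window and does not show binding.

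**Figure D2:**
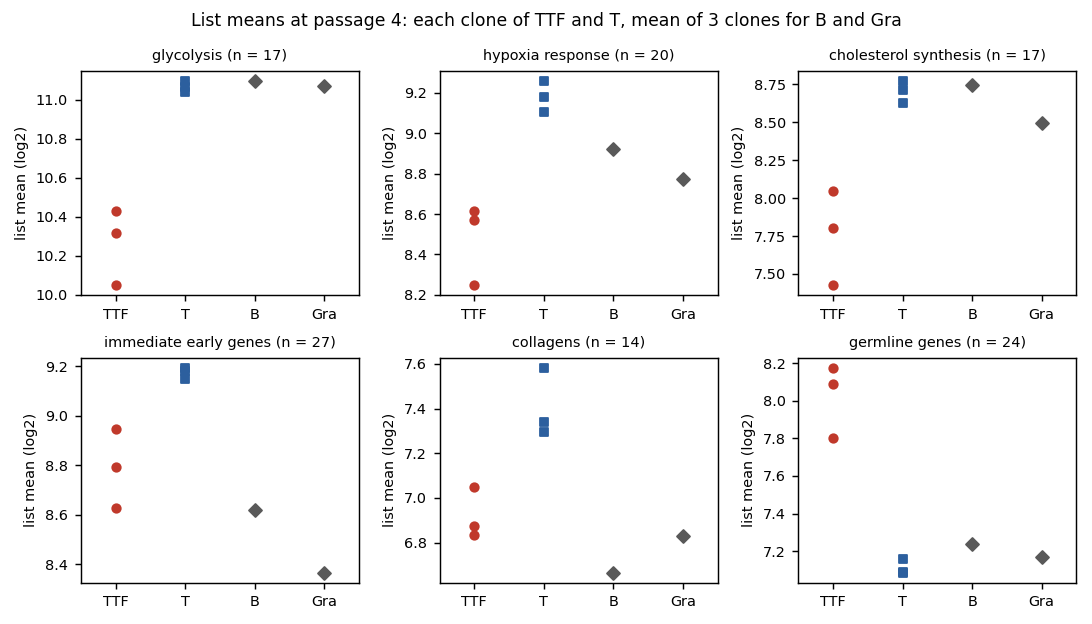
Mean log2 value (y axes) of 6 gene lists at passage 4, with each TTF (circles) and T cell (squares) clone as a point and the mean of 3 clones for B cell and granulocyte (Gra) lines (diamonds). TTF clones lie below the other 3 origins for glycolysis, hypoxia response and cholesterol synthesis and above them for germline genes, and T cell clones lie above the other 3 for immediate early genes and collagens.

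Enzymes of cholesterol synthesis had the lowest median of these groups, -0.95, with 10 of 17 genes called lower in TTF lines and none higher. The share called was 58.8%, beside 12.8% over all genes. Fdft1, the squalene synthase, was at 9.43, 9.64 and 9.82 in TTF clones and 10.68, 10.89 and 10.74 in T cell clones (-1.14 ± 0.15, adjusted p = 1.4e-05). Cyp51, which demethylates lanosterol, was at 8.30, 8.27 and 9.15 against 10.02, 9.88 and 9.96 (-1.38 ± 0.27, adjusted p = 0.00088). Fdps, the farnesyl diphosphate synthase, was at 7.39, 5.86 and 7.24 against 8.93, 9.30 and 8.43 (-2.06 ± 0.47, adjusted p = 0.0042). The clones were apart in each of these, and TTF clone 2 was lowest for Fdps and Cyp51. Stard4, Sc5d, Msmo1, Lss, Idi1, Mvd and Dhcr7 were lower by -0.84 to -1.54, with overlap for Lss, where TTF clone 1 at 7.10 lay within the T cell range. The second probe set of Sc5d differed by -0.07. Srebf2, the factor that drives the pathway, differed by -0.60 and was not called, nor were Sqle (-0.88), Nsdhl (-0.82) and Mvk (0.01). Without TTF clone 2, 4 cholesterol genes were called lower and the adjusted p of Fdps was 0.054, and 10 were called lower without both that clone and the passage 16 array of granulocyte clone 3. List means were 7.80, 7.43 and 8.05 in TTF clones and 8.62 to 8.77 in T cell clones. B cell lines were at 8.74 and granulocyte lines at 8.50. Against the mean of those origins TTF lines were called lower for 11 genes and higher for 0, and T cell lines lower for 0 and higher for 2. Of all genes, 25.3% and 24.6% were called in either direction. The motif TCACNCCAC of sterol regulatory element binding proteins was in none of the 13 promoters given, beside 1.44% of all genes.

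Immediate early genes, which serum and growth factors switch on within minutes, were lower in TTF lines in 7 of 27 cases and higher in 1, with a median of -0.31. Calls made up 29.6% of the list, beside 12.8% of all genes. Fosb, a partner of Jun in the AP-1 factor, was at 7.55, 6.38 and 7.11 in TTF clones and 8.76, 9.16 and 9.03 in T cell clones (-1.97 ± 0.29, adjusted p = 5.3e-05). Egr2, a zinc finger factor, was at 8.92, 7.64 and 7.65 against 9.56, 9.42 and 9.97 (-1.58 ± 0.27, adjusted p = 0.00025). Gadd45b, a stress sensor, was at 8.54, 8.45 and 9.07 against 10.53, 10.41 and 9.82 (-1.57 ± 0.25, adjusted p = 0.00016). None of the 3 overlapped between origins. Klf2, Jun, Maff and Nr4a1 were lower by -0.66 to -0.97, and Fosl1, another AP-1 member, was higher by 1.54 ± 0.27. Fos missed the threshold at -0.68 (adjusted p = 0.054), and Egr1, the brightest of the Egr factors, at -0.35 (adjusted p = 0.27). Against the mean of B cell and granulocyte lines, 10 genes were called higher and 2 lower in TTF lines, with a list median of 0.17. In T cell lines 14 were called higher and 0 lower, with a median of 0.60. Of all genes, 25.3% and 24.6% were called in either direction. Without TTF clone 2, 4 immediate early genes were called lower, and 5 without both that clone and the passage 16 array of granulocyte clone 3. Egr2 is shown because serum response factor binds the CArG box, marked in capitals.
Egr2 (chr10:67537316-67537615, plus strand): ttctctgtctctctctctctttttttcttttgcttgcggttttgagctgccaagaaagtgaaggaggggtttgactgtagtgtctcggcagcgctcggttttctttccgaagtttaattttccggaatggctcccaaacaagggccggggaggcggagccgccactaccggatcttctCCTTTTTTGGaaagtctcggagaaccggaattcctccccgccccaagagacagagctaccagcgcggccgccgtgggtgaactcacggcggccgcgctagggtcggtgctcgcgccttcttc
The box was in 2 of 20 immediate early genes with a promoter, Egr2 and Srf, against 1.81% of all genes, and TGACGTCA, the CRE bound by CREB factors, in 3 of 20 against 2.03%. Egr2 has 5 promoters in the table, of which this one holds the box.

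Genes of fibroblasts and their matrix were lower in the lines made from fibroblasts. Of 14 collagen genes 5 were called lower and none higher, and of 35 further fibroblast genes 11 were called lower and 1 higher. Calls made up 35.7% and 34.3% of the lists, beside 12.8% of all genes. Col1a1, the main fibrillar collagen, was at 8.28, 8.31 and 8.35 in TTF clones and 9.27, 9.99 and 9.49 in T cell clones (-1.27 ± 0.28, adjusted p = 0.0027). Col3a1 was at 7.48, 6.21 and 6.86 against 8.75, 8.97 and 9.25 (-2.14 ± 0.30, adjusted p = 3.4e-05). Mgp, an inhibitor of calcification, was at 7.67, 8.49 and 7.92 against 9.81, 10.08 and 9.63 (-1.81 ± 0.34, adjusted p = 0.00061). All TTF clones were below all T cell clones in these 3 genes. The second probe set of Col3a1 differed by -0.07. Col5a2, Col6a1 and Col6a3 were lower by -1.15 to -1.45, and Lox, which cross-links collagen, Acta2, Postn, Thbs2 and the galectin Lgals1 by -1.40 to -2.32. Second probe sets of Col5a2 and Acta2 differed by -0.12 and -0.03. Cald1 was higher by 0.72. Thy1 (-0.20), Vim (-0.40), Sparc (-0.28) and Dcn (-0.06) were not called, and the collagens of basement membranes, Col4a1 (1.24) and Col4a2 (0.81), lay in the other direction without a call. The mean of both lists was 6.82 to 6.99 in TTF clones and 7.33 to 7.56 in T cell clones, and the feeders, which are fibroblasts themselves, express the same genes. In these bulk cultures fewer cells of a type and less RNA per cell cannot be told apart, and the part of feeder RNA in the results was not tested directly. With that mean as a covariate, 527 genes were called in place of 1506, 485 of them shared, and no collagen was called. The covariate holds the collagens and fibroblast genes themselves, so the loss of their calls is no test. Its values also did not overlap between the origins, so fits with it cannot tell its part from that of origin.

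Muscle genes were lower in 5 of 20 cases and higher in 2 (35% called, beside 12.8% over all genes), with a median of -0.018. Acta1, the skeletal actin, was at 5.99, 4.64 and 5.73 in TTF clones and 7.89, 7.29 and 6.88 in T cell clones (-1.90 ± 0.43, adjusted p = 0.0038). Tnnc1, a troponin of heart and slow muscle, and Myl4 were lower by -1.52 and -0.93, alongside Myl3 and Pdlim4. The second probe set of Myl4 differed by 0.04. Myf5 and Myog, the regulators of muscle fate, were called higher by 0.53 and 0.65 at dim levels of 5.33 and below. Against the mean of B cell and granulocyte lines, 7 of the 20 genes were called higher in T cell lines and 5 in TTF lines, where 24.6% and 25.3% of all genes were called in either direction. With the fibroblast covariate 2 muscle genes were called lower.

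Among 35 pluripotency genes the median difference was -0.001, with 5 called higher and 3 lower in TTF lines. Calls made up 22.9% of the list, beside 12.8% of all genes. Dppa2, a chromatin factor of early embryos, was at 11.10, 11.43 and 10.36 in TTF clones and 9.41, 9.58 and 9.31 in T cell clones (1.53 ± 0.32, adjusted p = 0.0017). Tbx3, Fbxo15, Rif1 and Mybl2 were higher by 0.66 to 0.98. Lin28a, which blocks the maturation of let-7 microRNAs, was at 8.86, 6.80 and 7.64 against 9.91, 9.69 and 9.26 (-1.86 ± 0.47, adjusted p = 0.0091), and its B cell and granulocyte levels of 10.31 and 10.51 were higher still. The groups were apart for both Dppa2 and Lin28a. Klf2 (-0.97) and Stat3 (-0.58), which act downstream of LIF or beside it, were lower. Klf4 (0.26), Myc (0.00), Esrrb (-0.04), Zfp42 (0.81) and Klf5 (0.87) were not called. Both origins stood below the other 2 in this list: 13 genes were called lower in TTF lines and 13 in T cell lines against the mean of B cell and granulocyte lines. In the other direction 2 were called higher in TTF lines and 1 in T cell lines. Of all genes, 25.3% and 24.6% were called in either direction. Without TTF clone 2 the count of genes higher was 2 in place of 5, and the adjusted p of Lin28a was 0.10. The count was 5 without both that clone and the passage 16 array of granulocyte clone 3. With the 6 arrays alone 1 gene was called higher, and the adjusted p of Lin28a was 0.053.

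Genes of germ cells were higher in TTF lines in 8 of 24 cases and lower in none, with a median of 0.67. Calls made up 33.3% of the list, beside 12.8% of all genes. Tex15, a factor of meiosis and of transposon silencing in male germ cells, was at 8.62, 8.80 and 9.32 in TTF clones and 7.08, 6.96 and 6.92 in T cell clones (1.92 ± 0.34, adjusted p = 4e-04). Tex101, a surface protein of germ cells, was at 6.56, 6.93 and 6.89 against 5.16, 5.17 and 4.97 (1.70 ± 0.26, adjusted p = 1e-04). Mov10l1, a helicase of the piRNA pathway, was at 9.69, 10.16 and 9.77 against 8.36, 8.70 and 8.43 (1.38 ± 0.28, adjusted p = 0.0015). Each was higher in all 3 TTF clones than in any T cell clone. Taf7l and Tex19.1 were higher by 1.198 and 0.87, and Stra8, which opens meiosis, by 1.58 with overlap, since TTF clone 1 at 7.18 lay within the T cell range. Tktl1 and Usp17la complete the 8. Dazl (1.33), Tex11 (1.36), Ddx4 (0.42) and Rhox5 (-1.14) were not called. List means were 7.80, 8.09 and 8.17 against 7.09 to 7.16, with B cell and granulocyte lines at 7.24 and 7.17. With the fibroblast covariate 4 germline genes were called higher.

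Meg3 and Rian, maternally expressed noncoding RNAs of the imprinted Dlk1-Dio3 cluster whose silencing is known to mark iPSC lines of low developmental potency, were both higher in TTF lines. Meg3 was at 9.72, 10.15 and 9.995 in TTF clones and 8.64, 7.95 and 7.48 in T cell clones (1.94 ± 0.49, adjusted p = 0.0091). Its levels in B cell and granulocyte lines were lower again, 6.87 ± 0.89 and 6.89 ± 0.42. The 4 probe sets of Meg3 differed by 0.13 to 1.94. Rian was at 8.46, 7.83 and 9.22 against 7.78, 6.08 and 5.32 (2.11 ± 0.66, adjusted p = 0.032), so that TTF clone 2 and T cell clone 1 were almost level. Rian was no longer called without T cell clone 3 (adjusted p = 0.17), without T cell clone 2 (0.11) or with the 6 arrays alone (0.073), and Meg3 was at 0.052 without T cell clone 3. Dlk1, the paternally expressed gene of the cluster, differed by 0.31. Of 31 other imprinted genes, 6 were called lower and none higher, which is 19.4% beside 12.8% over all genes, with a median of -0.10. The growth factor Igf2 was at 6.63, 6.49 and 5.91 against 8.70, 7.72 and 7.37 (-1.59 ± 0.32, adjusted p = 0.0013), and Grb10, Phlda2, Ascl2, Snrpn and Snurf were lower by -0.78 to -1.79. The second probe set of Igf2 differed by -0.004. T cell clone 3 overlapped the TTF clones for Snurf. With the 6 arrays alone 3 of these imprinted genes were called lower, and with the fibroblast covariate none.

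The Notch pathway held calls both ways, 4 lower and 3 higher of 23 (30.4%, beside 12.8% over all genes), with a median of -0.13. Beside Dll1, the targets Hey1 (-1.90 ± 0.38, adjusted p = 0.0013) and Hes1 (-0.69 ± 0.16, adjusted p = 0.0055) and the regulator Dtx1 were lower in TTF lines, and Dll3, Notch3 and Maml1 were higher by 0.65 to 0.80. Hey1 spread widely among the TTF clones, at 7.18, 5.13 and 6.03, against 7.92 to 8.15. Notch1 (-0.09), Jag1 (-0.15) and Rbpj (0.40) were not called. Of 10 genes of antigen presentation by MHC class I, 4 were lower: the class I molecules H2-K1 (-1.27 ± 0.40, adjusted p = 0.034), H2-D1 and H2-Q1 and the loading factor Tapbp. The share called was 40%, beside 12.8% over all genes. Tapbp was at 8.77, 8.04 and 8.64 against 9.83, 9.73 and 9.39, while its second probe set differed by -0.08. The 4 probe sets of H2-K1 ranged from -1.27 to -0.16. Of the 5 probe sets of H2-D1, 3 were lower in TTF lines. H2 genes are close copies of one another, so a probe set can read more than 1 of them. In the interferon list 3 of 19 genes were lower and 1 higher, which is 21.1% beside 12.8% over all genes, with a median of -0.08 and Gbp2 at -1.69 ± 0.42.

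Of 22 histone demethylases and Polycomb genes 5 were lower in TTF lines and none higher, 22.7% beside 12.8% over all genes. The median was -0.13. Rybp, a subunit of noncanonical Polycomb repressive complex 1, was at 7.66, 7.24 and 7.68 in TTF clones and 8.89, 8.92 and 8.55 in T cell clones (-1.26 ± 0.17, adjusted p = 1.8e-05). Kdm4b, Kdm3a, Pcgf1 and Cbx7 were lower by -0.64 to -1.07. Ezh2 (-0.34), Suz12 (-0.06) and Eed (-0.07), the core of Polycomb repressive complex 2, were not called. The count was 3 without TTF clone 2, without T cell clone 2 and with the 6 arrays alone, and 4 without both TTF clone 2 and the passage 16 array of granulocyte clone 3. Dnmt3l, the cofactor of de novo DNA methyltransferases, was at 9.81, 8.53 and 8.57 against 10.12, 10.78 and 10.18 (-1.39 ± 0.25, adjusted p = 0.00054), whereas Dnmt3a (-0.76), Dnmt3b (0.44) and Dnmt1 (-0.25) were not called. In the endothelial list Tek, Tie1 and Eng, receptors of angiopoietins and of TGF-beta family ligands, were called higher and none of 14 lower. Plvap, the endothelial protein named above, is outside that list and was lower by -2.28. Tie1 was dim in both origins, at 5.17 and 4.20. The share called was 21.4%, beside 12.8% over all genes, with a median of -0.05. Pecam1 (-0.63), Cdh5 (-0.05) and Kdr (0.23) were not called.

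**Figure D3:**
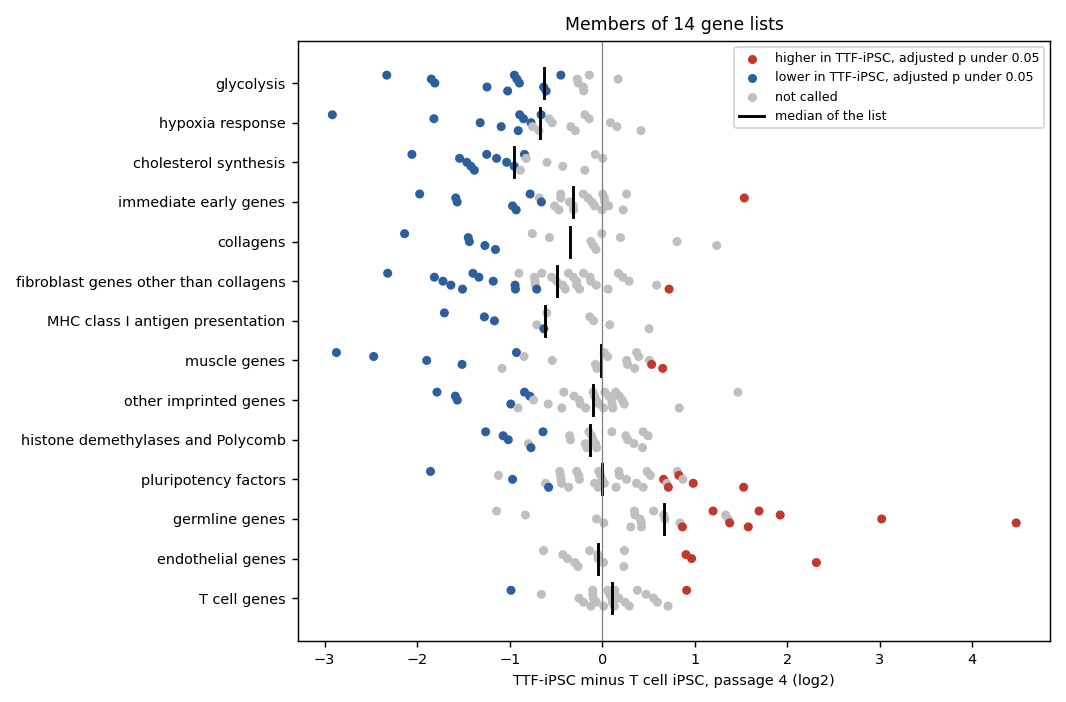
Log2 difference between TTF and T cell lines at passage 4 (x axis) for each measured member of 14 gene lists (rows), with genes called higher in red, called lower in blue and not called in grey, and a bar at the list's median. The medians of glycolysis, hypoxia response and cholesterol synthesis lie at -0.63, -0.67 and -0.95, that of germline genes at 0.67, and that of pluripotency factors at -0.001.

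The remaining lists stand beside the 12.8% called over all genes. Ribosomal proteins had 1 of 34, Rpl14, with a median of 0.01. Of 41 respiratory chain genes 2, Atp5a1 and Cox7c, were called, and of 34 genes of mitosis and DNA replication 1, Diaph3, at 6.63, 6.74 and 6.47 in TTF clones against 5.17, 5.54 and 4.71. No endoderm gene of 26 and no Ink4 or Cip inhibitor of 7 was called, and mesoderm and neural lists had 1 each, Foxc2 and Ncam1. In the lists of B cells, of granulocytes and macrophages and of p53 targets 2 of 22, 2 of 28 and 3 of 26 were called, each in both directions. The epithelial list had 4 lower and 1 higher of 31, with Prss8, a serine protease, at -1.60 ± 0.26, while Cdh1 (0.54) and Epcam (-0.45) were not called. Of the TGF-beta and BMP pathway 2 of 24 were lower, among them the BMP antagonist Grem1, and 2 higher. Of 12 genes of FGF-ERK feedback, Spry1 was lower and Spred1 and Spred2 were higher. In the list of the amino acid and integrated stress response Ddit3 was lower by -1.15 ± 0.25 and Wars higher by 0.64 of 23 genes.

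The side on which the called genes differed was read from the other origins of mouse 2 at passage 4. Both B cell and granulocyte means lay nearer to T cell lines for 544 called genes (36.1%), nearer to TTF lines for 584 (38.8%), and on different sides for 378. Genes higher in TTF lines leaned toward a TTF difference, with 345 nearer to T cell lines and 172 nearer to TTF lines. Genes lower in TTF lines leaned the other way, with 199 and 412. The glycolysis calls were nearer to T cell lines for 9 of 11, and the muscle calls nearer to TTF lines for 5 of 7. The 3' minus 5' difference of Gapdh was 0.68 to 0.74 in the B cell arrays and 0.81, 0.95 and 1.88 in the granulocyte arrays. It was 2.74, 4.20 and 1.82 in TTF clones 1, 2 and 3 and 1.32, 1.71 and 2.59 in the T cell clones. Granulocyte clone 3 lay within the range of the comparison, and the other B cell and granulocyte arrays lay below it. The part of this measure in these distances was not tested.

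None of the 6 measured genes of the sex-linked list was called, although some genes of the Y chromosome lay higher in TTF lines and the labels give both origins to mouse 2. Eif2s3y, a translation factor subunit, was at 10.40, 9.93 and 11.03 in TTF clones and 8.92, 6.16 and 6.28 in T cell clones (difference 3.33, adjusted p = 0.12). The groups did not overlap, and T cell clone 1 lay between the others. One of the 2 probe sets of Uty was at 5.13, 4.57 and 5.14 against 3.20, 2.72 and 2.75. Uba1y and Ssty2, which are here because they were among the 15 furthest above, were called. Uba1y was at 7.48, 4.85 and 6.39 against 4.05, 3.56 and 3.96, while its other probe set, at 6.08, 3.75 and 5.64 against 4.38, 4.26 and 3.44, overlapped between the origins. Ssty2 was at 6.44, 6.57 and 4.23 against 3.94, 3.71 and 3.37. Zfy2 overlapped, at 5.80, 5.63 and 5.37 against 5.06, 5.99 and 5.38. Kdm5d, Usp9y, Zfy1 and Ssty1 were at 4.45 or below in all 6 clones. Xist, the RNA of the inactive X chromosome, was at 6.53 to 6.64 and 6.32 to 7.23 (difference -0.15, adjusted p = 0.83). At passage 10, on the other platform, Xist was called higher in TTF lines (0.97 ± 0.12, adjusted p = 0.014 by limma). Eif2s3y was also higher in TTF lines at passage 16, at 6.77, 9.27 and 9.20 against 4.89, 5.90 and 5.33.

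At passage 16 the same origins differed in 97 genes (0.822%), 63 higher and 34 lower in TTF lines, with 1572 at an unadjusted p under 0.05. The difference itself changed between the passages for 1341 genes (11.4%), of which 932 were called at passage 4, and 895 of those had a smaller absolute difference at passage 16. The passage 4 values that chose the calls also enter the change, so these 2 counts lean toward smaller differences by that choice. Most differences also changed sign. Of the 1506 genes called at passage 4, 429 (28.5%) had the same sign at passage 16, beside 39.5% of all genes, and Pearson's r between the differences at both passages was -0.267 over 11807 genes and -0.430 over the 1506. Both values are across genes, which are not independent of one another. Of 32 genes called at both passages, 3 had the same sign: Meg3 (1.94 and 2.38), Mgst1 (0.85 and 1.07), a glutathione transferase, and St3gal6 (0.73 and 1.13), a sialyltransferase with 1 of 2 probe sets in that direction. Fosb was 1.61 higher in TTF lines at passage 16 (adjusted p = 0.0046), H2-K1 2.54 (0.0017), Col1a1 1.21 (0.029) and Ddit3 1.21 (0.015), all lower at passage 4. Taf7l and Sfn went from higher to lower, at -1.65 (0.0046) and -1.05 (0.013). In the lists the medians at passage 16 were 0.12 for glycolysis, 0.24 for hypoxia, 0.40 for cholesterol synthesis, 0.71 for collagens and -0.18 for germline genes, each on the other side of zero from passage 4. Other lists kept their side. Among them were immediate early genes at -0.053, epithelial genes at -0.208, muscle genes at -0.175 and the Dlk1-Dio3 cluster at 2.18. Without TTF clone 2 of passage 4, 863 genes changed in place of 1341. The passage 16 count ranged from 21 to 111 as 1 of its clones was left out, with 21 without TTF clone 1, 33 without TTF clone 2, 60 without T cell clone 1 and 41 without T cell clone 3.

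**Figure D4:**
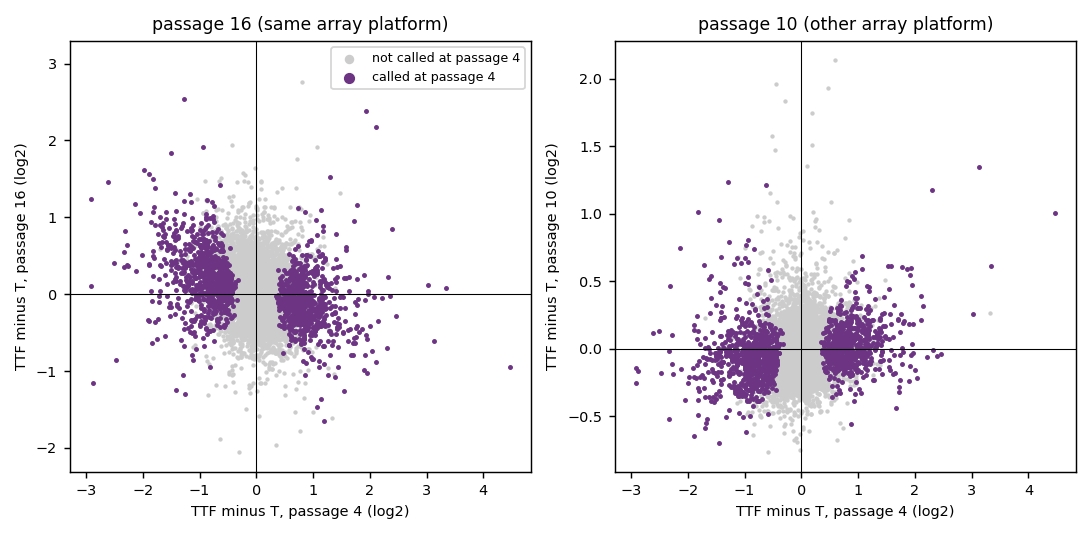
Log2 difference between TTF and T cell lines at passage 4 (x axes) against that at passage 16 (left y axis) and passage 10 (right y axis), each point 1 gene, with genes called at passage 4 in purple. At passage 16 the purple points lie mostly in the quadrants of opposite sign (28.5% keep their sign), and at passage 10 their differences are small and 62.5% keep it.

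Markers of fibroblasts and the RNA measure turned with the same passages. The mean of the fibroblast and collagen lists was 6.88 ± 0.09 in TTF and 7.45 ± 0.12 in T cell lines at passage 4, and 7.42 ± 0.05 and 7.02 ± 0.20 at passage 16. The 3' minus 5' difference was 3.07 ± 0.91 and 2.22 ± 0.57 at passage 4, and 2.11 ± 0.32 and 2.86 ± 0.53 at passage 16. With the fibroblast covariate the share of passage 4 calls that kept their sign was 9.7% and the interaction called 306 genes. That covariate did not overlap between the origins at either passage, so this fit cannot tell its part from that of origin. With the 3' minus 5' covariate, chosen after the data were seen, 2031 genes were called at passage 4, 337 at passage 16 and 1777 for the change.

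**Figure D5:**
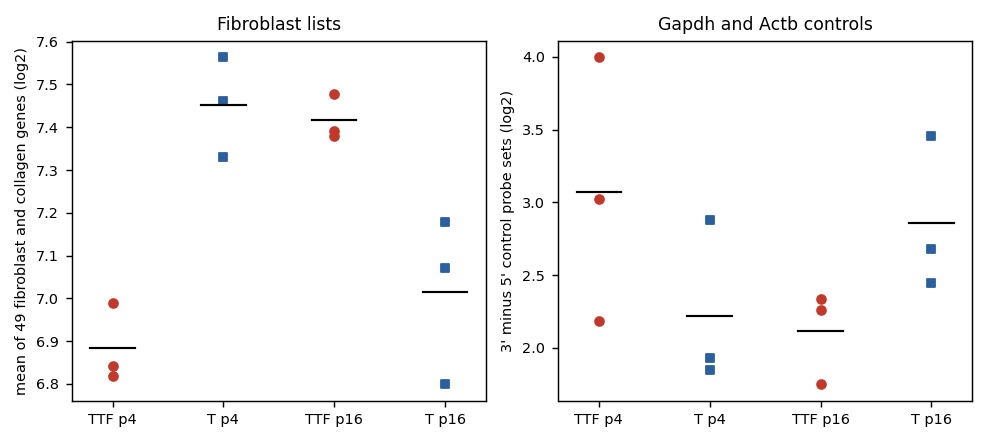
Mean of the fibroblast and collagen genes (left, log2) and 3' minus 5' difference of the Gapdh and Actb control probe sets (right, log2) in each TTF (circles) and T cell (squares) clone at passages 4 and 16, with bars at the group means. At passage 4 the fibroblast genes are lower in TTF lines and at passage 16 higher, 6.88 against 7.45 and 7.42 against 7.02.

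At passage 10, measured on another platform and normalized apart, 11 of 12394 genes (0.0888%) were called, 9 higher and 2 lower in TTF lines, with 2033 at an unadjusted p under 0.05. Of the 1465 passage 4 calls measured there, 4 were also called, each in the direction of passage 4: Usp17la (1.00), AF067061 (1.35), Gm20767 (1.18) and Pdgfb (-0.55). The same sign was found for 915 (62.5%), beside 54.9% of all genes. Across genes r was 0.149 over 11485 genes and 0.266 over the calls. Median differences there were -0.19 for glycolysis, -0.26 for hypoxia and -0.08 for cholesterol synthesis, in the direction of passage 4, and 0.35 for collagens, in that of passage 16. Meg3 differed by 0.60 (adjusted p = 0.10). The count of 11 was 1 or 2 without TTF clone 1, TTF clone 2, T cell clone 1 or T cell clone 2 of passage 10, 101 without TTF clone 3 and 58 without T cell clone 3.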

How the data were processed

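RNA of 45 iPSC cultures was hybridised to Affymetrix arrays. The values are log2 signals of 22690 probe sets that the authors computed by RMA, per the submitters' processing notes (version not given in the sources used here). They form 2 tables that were normalized apart: 33 arrays of passages 4, 6 and 16 and 12 arrays of passage 10. Gene symbols came from the platform's annotation tables. Of the probe sets in the first table, 18003 had 1 symbol, 287 several and 4400 none. Probe sets with several symbols or none were dropped, and a gene was read from its brightest probe set on average, giving 11807 genes (12394 at passage 10). Entrez identifiers matched RefSeq for 17977 of the 18003.

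limma 3.58.1 under R 4.3.3 modelled all arrays of a table jointly by group, with moderated spread and two-sided tests adjusted by the method of Benjamini and Hochberg over all genes. The fit was tested on simulated data. Contrasts were TTF minus T at each passage, their change from passage 4 to 16, and each origin against the mean of B cell and granulocyte lines. Lists are described by counts and medians. No lower limit on signal was set. The arrays' number limits the precision.

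Named genes were the 15 in each direction with the largest differences among called genes without overlap, up to 5 called members of a list, and a set of genes chosen by name. Other members appear with their difference where they complete a list. The members and lists were chosen with earlier results of these data known. Figures and motif counts used Python 3.11.15, pandas 2.3.3 and matplotlib 3.10.9. Alternatives covered the arrays fitted, normalization, a filter on dim genes, probe set choice, the clone number as a block, a fibroblast covariate, the spread model and leaving out each clone.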

Additional observations from a re-analysis of the deposited data

Results flagged for a closer look

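The difference between TTF and T cell lines changed from passage 4 to passage 16 for 1341 genes by the test of the change itself (limma, adjusted p under 0.05). Of the 15 genes furthest apart in each direction and the genes chosen by name, those that passed this test are given here with the change of the log2 difference, passage 16 minus passage 4. A negative change means that the difference moved toward T cell lines. The 15 genes in each direction were chosen by passage 4 values that also enter the change, so their changes lean toward smaller differences by that choice.

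Usp17la changed by -5.43, from 4.48 at passage 4 to -0.95 at passage 16. AF067061 changed by -3.74, D13Ertd608e by -3.27, Gm20767 by -3.00, Fbp1 by -2.99, Tktl1 by -2.90, Casp14 by -2.78, Fam83h by -2.75, Aqp9 by -2.49, Bhmt by -2.27 and Tek by -2.09. These genes were all higher in TTF lines at passage 4.

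Among genes lower in TTF lines at passage 4, Tmem106b changed by 4.15 and Dll1 by 4.07. Matrix genes followed, with Col3a1 at 3.30, Lox at 3.15, Mgp at 2.88 and Col1a1 at 2.48. Of the immediate early genes, Fosb changed by 3.59, Egr2 by 2.26, Jun by 1.64 and Fos by 1.22, the last of which was not called at passage 4. Metabolic and hypoxia genes changed by 3.12 for Fdps, 3.02 for Ndrg1, 2.88 for Aldoc and 2.05 for Bnip3. Igfbp4 changed by 2.93, Gata2 by 2.92, Lin28a by 2.80, S100a13 by 2.68, Plvap by 2.67, Lin7b by 2.63, Crebrf by 2.42 and Pdlim4 by 1.62. Groups of 3 clones are too small for a test of single outlying clones.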

How the results depend on the processing

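The count of 1506 genes called at passage 4 was 558 with the 6 arrays alone, 527 with the fibroblast covariate and 860 without both TTF clone 2 of passage 4 and T cell clone 3 of passage 16. Without 1 of the 6 clones it ranged from 729 to 1556, and it was 2251 without the passage 16 array of granulocyte clone 3. The 97 genes of passage 16 became 421 without granulocyte clone 3 of passage 16, the array with the lowest correlation with its group, 44 with the fibroblast covariate, 337 with the 3' minus 5' covariate, 62 without both clones, and 21 to 111 without 1 clone. The 1341 genes of the change became 884, 2264, 306 and 768 with the arrays of both origins alone, without that granulocyte array, with the fibroblast covariate and without both clones, and 863 to 1480 without 1 clone. The share of passage 4 calls with the same sign at passage 16 was 9.7% with the fibroblast covariate and 26.7% to 31.3% in the other fits. At passage 10 the 11 genes became 3 (6 arrays), 19 (without dim genes), 5 (mean of probe sets) and 1 to 101 without 1 clone.

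With the fibroblast covariate the genes called lower were 4 immediate early, 4 cholesterol, 0 collagen, 2 fibroblast, 0 other imprinted and 2 muscle genes, and those called higher 2 pluripotency and 4 germline genes. That covariate holds the collagens itself, and Col1a1 turned from -1.27 to 0.031 (adjusted p = 0.98). With the 6 arrays alone the counts were 5 for glycolysis, 3 for other imprinted genes, 3 for Polycomb genes and 1 for pluripotency. Pluripotency gave 3 with the mean of probe sets and 10 with the 3' minus 5' covariate. Without both clones the counts were 4 immediate early, 6 cholesterol, 3 pluripotency and 3 Polycomb genes. Without 1 clone they ranged from 4 to 10 for immediate early, 4 to 12 for cholesterol, 2 to 6 for pluripotency and 3 to 6 for Polycomb genes.

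Deviations from the group means correlated at 0.049, -0.004 and -0.212 between TTF and T cell clones of the same number, so the numbers were not taken as pairs. Clones of the same number and origin at different passages were not compared in this way. The main fit of the change does not pair them. With clone number as a replicate block 1585 genes were called at passage 4, 1486 of them among the 1506, 108 at passage 16, 1402 for the change and 1 at passage 10. Quantile and cyclic loess normalization gave 1623 and 1733 genes. Leaving out TTF clone 2 together with a T cell or granulocyte array, the 3' minus 5' covariate and the contrasts with the mean of other origins were chosen after seeing the data.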

Other observations

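The genes in these paragraphs lie outside the lists and the naming rule and were chosen after their values were seen. Ada, the adenosine deaminase of purine salvage, was higher in TTF lines, at 8.96, 8.65 and 8.92 against 6.85, 6.91 and 6.77 in T cell lines (difference 2.00 ± 0.32, adjusted p = 0.00012 by limma). B cell lines were at 6.52 and granulocyte lines at 7.12. Nqo1, a quinone reductase of the oxidative stress response, was at 6.85, 8.05 and 8.30 against 6.38, 5.97 and 5.59 (1.76 ± 0.30, adjusted p = 0.00029). Scd1, which introduces a double bond into fatty acids, was lower, at 8.80, 10.06 and 10.35 against 11.80, 11.06 and 11.73 (-1.79 ± 0.29, adjusted p = 0.00013). Herpud1, a component of protein disposal at the endoplasmic reticulum, was at 8.01, 7.01 and 8.46 against 9.24, 9.90 and 9.53 (-1.73 ± 0.24, adjusted p = 2.2e-05). The clones of the origins did not overlap in any of these 4 genes.

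Beside Usp17la, AF067061 and Gm20767, genes called higher in TTF lines included Tcstv1, at 5.47, 7.10 and 5.13 in TTF clones and 3.58, 4.90 and 3.66 in T cell clones (1.86 ± 0.46, adjusted p = 0.0072), Usp17lc (1.21, adjusted p = 0.0093) and AF067063 (1.17, adjusted p = 0.024). Tcstv3 (0.82, adjusted p = 0.079) and Zfp352 (0.92, adjusted p = 0.17) were not called. TTF clone 2 was the highest of the 6 clones in all 5. Probe sets of Usp17la and Usp17lc, and those of the Tcstv genes, may read copies of similar sequence, so these values may not be independent.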
